A study of Mus musculus with 4 samples.

Results

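The genes of MHC class II presentation were followed in helper T cells from mouse spleen. The set holds 10 genes (Cd74, H2-Aa, H2-Ab1, H2-Eb1, H2-DMa, H2-DMb1, H2-DMb2, H2-Oa, H2-Ob and Ciita), picked by symbol from the known pathway, with earlier results of these data known, and each had 1 of the 23700 rows of every expression table. The libraries labelled KO (KO 1 and KO 2) carry the genotype label RIPK1-KO, which the series design describes as a deletion confined to T cells, and the libraries labelled WT (WT 1 and WT 2) carry the label wild type. All 4 libraries came from C57BL/6 mice aged 43 weeks. The sources used here do not give the promoter that drives the deletion, the part of Ripk1 that is removed or the meaning of the word Ctrl that ends every title. Whether the 2 libraries of each genotype stem from different mice is not labelled either, so the p-values reflect the scatter among these libraries only, and that scatter may be technical.

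MHC class II molecules are pairs of an alpha and a beta chain that carry peptides from endosomes to the cell surface, where the receptors of CD4 T cells read them. B cells, dendritic cells and macrophages are the main cells that make them, and mouse T cells are generally described as making little. Cd74, the invariant chain, holds new class II molecules and blocks their peptide groove. H2-DM removes the last piece of Cd74 and edits the bound peptides, and H2-DO inhibits H2-DM. Ciita is the transactivator that the class II promoters need. It does not bind DNA itself but is recruited by the RFX complex, NF-Y and CREB at upstream elements called the X and Y boxes.

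The promoters are shown because class II genes are described as sharing a transactivator, and because the class II rows did not all differ alike in the comparison that follows. RefSeq (GRCm38.p6, a later build than the mm8 named by the submitters) held a promoter of 300 bases, from 250 before to 50 after the transcription start, for 7 of the 10 genes. For 6 of them a window of 65 bases is printed 5′ to 3′ on the strand of the gene. Capitals mark the letters AGCAAC, a common core of the X box, and TGATTGG, which holds the ATTGG of the Y box. AGCAAC and ATTGG were chosen from textbook knowledge, and TGATTGG was chosen after these sequences were seen.
H2-Aa, chr17:34287859-34287923, minus strand: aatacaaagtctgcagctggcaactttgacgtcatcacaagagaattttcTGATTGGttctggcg
H2-Eb1, chr17:34305756-34305820, plus strand: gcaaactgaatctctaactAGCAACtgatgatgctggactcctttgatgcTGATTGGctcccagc
H2-DMb1, chr17:34153078-34153142, plus strand: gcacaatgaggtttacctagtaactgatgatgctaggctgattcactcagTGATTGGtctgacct
H2-DMb2, chr17:34145107-34145171, plus strand: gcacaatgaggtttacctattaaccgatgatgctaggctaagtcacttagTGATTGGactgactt
H2-Oa, chr17:34092284-34092348, plus strand: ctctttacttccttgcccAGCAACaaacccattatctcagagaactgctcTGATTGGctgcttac
H2-Ob, chr17:34238796-34238860, plus strand: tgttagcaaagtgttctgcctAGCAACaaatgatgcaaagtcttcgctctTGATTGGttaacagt
TGATTGG stood on the gene strand in these 6 promoters, beginning 45 to 92 bases before the start. Either strand of 7.82% of 32851 RefSeq promoters of the same length held TGATTGG, and the gene strand of 4.01% did. AGCAAC was found in the promoters of H2-Eb1, H2-Oa and H2-Ob, with 25, 26 and 23 bases between it and TGATTGG. It was present on either strand of 14.8% of all promoters, ATTGG on either strand of 37.4%, and AGCAAC together with TGATTGG in 1.37%. Neither AGCAAC nor TGATTGG was found in either H2-DMa promoter, of which the second held ATTGG. H2-Ob holds both sets of letters, as do H2-Oa and H2-Eb1, and the values of all of these genes are given further on. Whether the letters bear on the levels was not tested. A match is a description of the letters and not of a bound site.

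Levels are in FPKM, fragments per transcript kilobase and per mapped total of the library, so levels of different genes can be set side by side per length. Depth was estimated at 17500000 and 19100000 fragments in KO 1 and KO 2, and at 21200000 and 22100000 in WT 1 and WT 2. At that depth 1 FPKM of a 2 kb transcript rests on about 35 to 44.2 fragments. Of 11074 rows with at least 1 FPKM in at least 2 libraries, 25.6% were called higher and 1.0% lower in the libraries labelled KO (limma on log2(FPKM + 1), Benjamini-Hochberg adjusted p of at most 0.05), and the median row differed by 0.38 on the log2 scale. After trimmed-mean scaling of the libraries 501 rows were higher and 415 lower, against 2832 and 111 as deposited, so changes are also given relative to the median. The targeted gene went against the labels: Ripk1, the kinase named in the genotype, had 10.4 and 9.54 FPKM in the libraries labelled KO, against 5.61 and 5.60 FPKM in WT (log2 difference 0.73 ± 0.17 SE, limma adjusted p = 0.0262). The helper T cell genes Cd4 and Cd3e, which check the labelled cell type, stood at 129 to 211 FPKM in the libraries labelled KO and at 61.3 to 87.3 FPKM in WT, while Cd3d was at 169 to 175 FPKM and 185 to 238 FPKM. A comparison of 2 against 2 libraries allows no exact permutation p below 0.333, so calls rest on the fit across all rows.

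Most class II rows were higher in the libraries labelled KO. Of the 10 genes, 7 were called higher and 0 lower, where the background of all tested rows was 25.6% and 1.0%. The classical chains and Cd74 had means of 4.02 to 5.36 times those of WT, and log2 changes of 1.60 to 2.27. On that log2(FPKM + 1) scale the DM genes and H2-Oa had differences of 0.84 to 1.24, and H2-Ob and Ciita showed no called difference. In 8 of the 10 genes both libraries labelled KO exceeded both WT libraries, which was the case for 58.5% of all tested rows, and the reverse order (12.1% of all rows) was found for 0 of the 10. All 10 genes passed the filter on low values, H2-DMb1 and H2-DMb2 only through the libraries labelled KO, so the count is a description of the set and not evidence about it. The median log2 change of the 10 was 1.14, or 0.77 beyond that of all tested rows. Of the 7 called genes, 2 (Cd74 and H2-Ab1) were called after trimmed-mean scaling, 1 (Cd74) after quantile normalization and 0 when WT 1 was left out, although all 7 had a positive difference in each of these settings. Without WT 1 the spread comes from the libraries labelled KO alone, the lone WT library being assumed to vary like them.

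**Figure D1:**
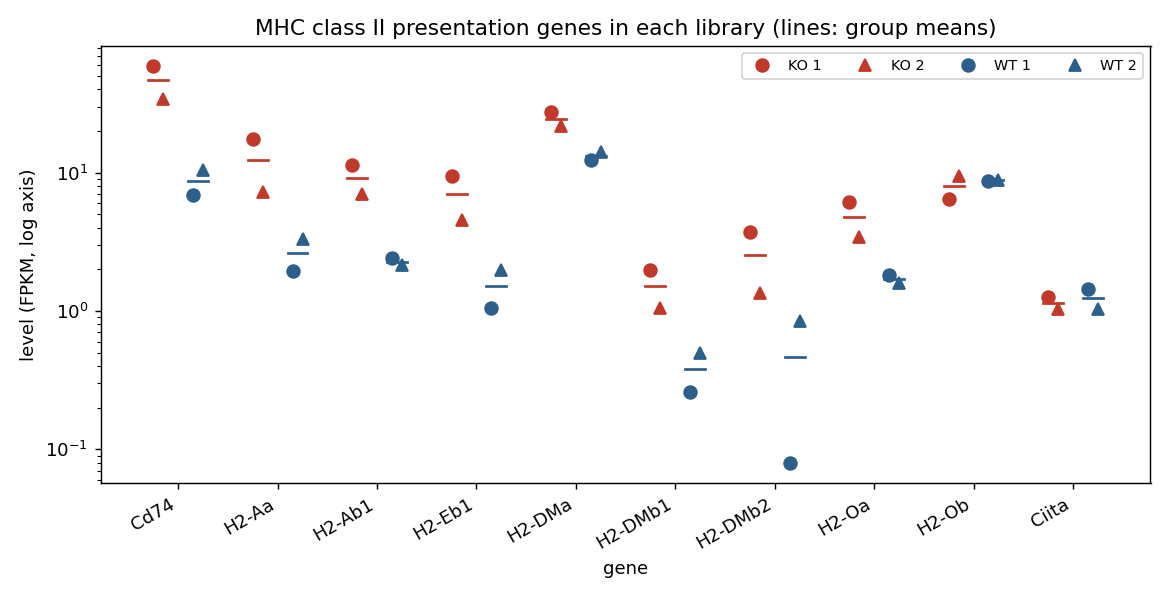
Level of each class II gene (FPKM, log axis) in KO 1, KO 2, WT 1 and WT 2; points are libraries and short lines are group means. The points of the libraries labelled KO lie above those of WT for 8 genes, Cd74 being at 59.1 and 34.1 FPKM against 6.90 and 10.5 FPKM, and the groups overlap for H2-Ob and Ciita.

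Cd74, the invariant chain, had 59.1 FPKM in KO 1 and 34.1 FPKM in KO 2, against 6.90 FPKM in WT 1 and 10.5 FPKM in WT 2. The groups did not overlap, and the lower library labelled KO was 3.24 times the higher WT library. The means were 46.6 ± 17.7 FPKM in the libraries labelled KO and 8.71 ± 2.55 FPKM in WT (SD, n = 2 each), a 5.36-fold ratio. On the log2(FPKM + 1) scale, which understates changes of low genes, Cd74 rose by 2.27 ± 0.32 (SE; limma adjusted p = 0.0129), or by 1.89 beyond the median row. It also kept its call after trimmed-mean scaling of the libraries (log2 change 1.84, limma adjusted p = 0.0250), where 4.52% of all rows were called higher, and after quantile normalization (limma adjusted p = 0.0467), where 1.62% were. Without WT 1 the log2 change was 2.0 with a limma adjusted p of 0.0860, and 0.0825% of all rows were called higher.

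H2-Aa encodes the alpha chain of I-A, the class II molecule that C57BL/6 mice display. Its levels were 17.4 and 7.20 FPKM in KO 1 and KO 2, against 1.94 and 3.33 FPKM in WT 1 and WT 2. KO 1 stood well above KO 2, and both exceeded WT. The means of 12.3 ± 7.22 FPKM in the libraries labelled KO and 2.63 ± 0.988 FPKM in WT (SD, n = 2 each) had a ratio of 4.67. H2-Aa rose by 1.78 ± 0.39 on the log2 scale (SE; limma adjusted p = 0.0225), and the call was lost after trimmed-mean scaling (log2 change 1.42, limma adjusted p = 0.0598), quantile normalization (adjusted p = 0.0867) and without WT 1 (adjusted p = 0.156).

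H2-Ab1 encodes the I-A beta chain, the partner of H2-Aa. It had 11.3 and 6.98 FPKM in KO 1 and KO 2, against 2.40 and 2.14 FPKM in WT 1 and WT 2. Here WT 1 was the higher WT library, unlike for Cd74, H2-Aa and H2-Eb1, and the groups were again apart. H2-Ab1 averaged 9.13 ± 3.04 FPKM in the libraries labelled KO and 2.27 ± 0.182 FPKM in WT (SD, n = 2 each), a 4.02-fold ratio. It rose by 1.60 ± 0.24 on the log2 scale (SE; limma adjusted p = 0.0131) and passed after trimmed-mean scaling too (log2 change 1.23, limma adjusted p = 0.0391), but not after quantile normalization (adjusted p = 0.0612) or without WT 1 (adjusted p = 0.0871).

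H2-Eb1 encodes the beta chain of I-E. C57BL/6 mice carry a defective gene for its alpha partner, and the row of that gene (H2-Ea-ps) was at 0.195 and 0 FPKM in KO 1 and KO 2 and at 0.160 and 0 FPKM in WT 1 and WT 2, below the filter. H2-Eb1 itself had 9.40 and 4.54 FPKM in KO 1 and KO 2, against 1.05 and 1.97 FPKM in WT 1 and WT 2. The order of the 4 libraries was that of Cd74 and H2-Aa: KO 1, KO 2, WT 2, WT 1. H2-Eb1 averaged 6.97 ± 3.43 FPKM in the libraries labelled KO and 1.51 ± 0.651 FPKM in WT (SD, n = 2 each), a 4.62-fold ratio, and rose by 1.62 ± 0.33 on the log2 scale (SE; limma adjusted p = 0.0200). It was not called after trimmed-mean scaling (limma adjusted p = 0.0543) or quantile normalization (0.0812). Nor was it called without WT 1 or WT 2 (log2 changes 1.35 and 1.89).

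The peptide editor H2-DM had smaller differences than the classical chains on the log2(FPKM + 1) scale, a contrast that was not tested. It did not hold for H2-DMb2 with a pseudocount of 0.1 (2.51, against 1.92 to 2.38 for the classical chains and Cd74). By ratios of means it was clear only for H2-DMa (1.86). On that measure H2-DMb1 (3.98) lay next to H2-Ab1 (4.02), and H2-DMb2 (5.46) exceeded Cd74 (5.36) and all classical chains. H2-DMa, the alpha chain of H2-DM, had 27.3 and 21.8 FPKM in KO 1 and KO 2, against 12.3 and 14.1 FPKM in WT 1 and WT 2. The replicates lay close together and the groups apart. The 1.86-fold ratio of the means (24.5 ± 3.82 FPKM in the libraries labelled KO, 13.2 ± 1.27 FPKM in WT; SD, n = 2 each) gave a rise of 0.84 ± 0.21 on the log2 scale (SE; limma adjusted p = 0.0293). Of this, 0.46 lay beyond the median row. H2-DMa was not called after trimmed-mean scaling (log2 change 0.41, limma adjusted p = 0.131) or quantile normalization (0.115). Nor was it called without KO 1, WT 1 or WT 2 (log2 changes 0.687, 0.749 and 0.932).

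Mice have a pair of DM beta chain genes. H2-DMb1 had 1.97 and 1.06 FPKM in KO 1 and KO 2, against 0.258 and 0.501 FPKM in WT 1 and WT 2, and rose by 0.85 ± 0.25 on the log2 scale (SE; limma adjusted p = 0.0479), a call that was lost after either scaling, with pseudocounts of 0.1 (adjusted p = 0.0582) and 5 (0.0518) and without WT 1 (0.212) or WT 2 (0.0887). H2-DMb2 had 3.74 and 1.34 FPKM in KO 1 and KO 2, against 0.0798 and 0.850 FPKM in WT 1 and WT 2. Its groups did not overlap, but the 2 WT libraries were far apart, and the log2 difference of 1.24 ± 0.40 (SE) missed the threshold (limma adjusted p = 0.0588). The ratios of the means were 3.98 for H2-DMb1 and 5.46 for H2-DMb2. The WT 1 value of H2-DMb2 rests on about 2.17 fragments and that of H2-DMb1 on about 6.6, so neither WT level is precise. The genes are near copies: their longest coding transcripts in GENCODE M21 were 96.0% identical over 1045 aligned bases, and 26.6% of the 50-base stretches of H2-DMb1 occurred unchanged in H2-DMb2. The sources used here do not say how reads that match both were assigned, so the split between the pair is uncertain. H2-DMa exceeded the summed level of both in every library: it was 4.77 and 9.12 times their sum in KO 1 and KO 2, and 36.4 and 10.4 times in WT 1 and WT 2.

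The chains of H2-DO, the inhibitor of H2-DM that is known chiefly from B cells, had unlike values. H2-Oa, the alpha chain, had 6.10 and 3.44 FPKM in KO 1 and KO 2, against 1.82 and 1.60 FPKM in WT 1 and WT 2. It averaged 4.77 ± 1.88 FPKM in the libraries labelled KO and 1.71 ± 0.153 FPKM in WT (SD, n = 2 each), a 2.79-fold ratio, and rose by 1.05 ± 0.25 on the log2 scale (SE; limma adjusted p = 0.0274). H2-Oa was not called after trimmed-mean scaling (limma adjusted p = 0.101) or quantile normalization (0.140). Nor was it called without KO 1, WT 1 or WT 2 (log2 changes 0.715, 1.11 and 0.995). H2-Ob, the beta chain, had 6.46 and 9.46 FPKM in KO 1 and KO 2, against 8.72 and 8.90 FPKM in WT 1 and WT 2. The libraries labelled KO lay on either side of WT, and the log2 difference was -0.15 ± 0.22 (SE; limma adjusted p = 0.614). That difference turned to 0.09 without KO 1, so no direction is given for H2-Ob. Within a library, the H2-Oa level was 0.944 and 0.364 times the H2-Ob level in KO 1 and KO 2, and 0.208 and 0.180 times in WT 1 and WT 2, a ratio that does not depend on scaling between libraries.

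Ciita, the class II transactivator, was low and showed no called difference. Its levels were 1.27 and 1.03 FPKM in KO 1 and KO 2, and 1.44 and 1.03 FPKM in WT 1 and WT 2. The groups overlapped, with means of 1.15 ± 0.171 FPKM in the libraries labelled KO and 1.24 ± 0.290 FPKM in WT (SD, n = 2 each). The log2 difference was -0.05 ± 0.20 (SE; limma adjusted p = 0.858), with a small positive sign when KO 2 or WT 1 was left out. These levels rest on about 114 to 129 fragments in the libraries labelled KO and 132 to 178 in WT. The ratio of Cd74 to Ciita was 46.5 and 33.1 in KO 1 and KO 2, and 4.78 and 10.2 in WT 1 and WT 2. A gene table does not separate the promoters of Ciita, which differ between cell types.

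**Figure D2:**
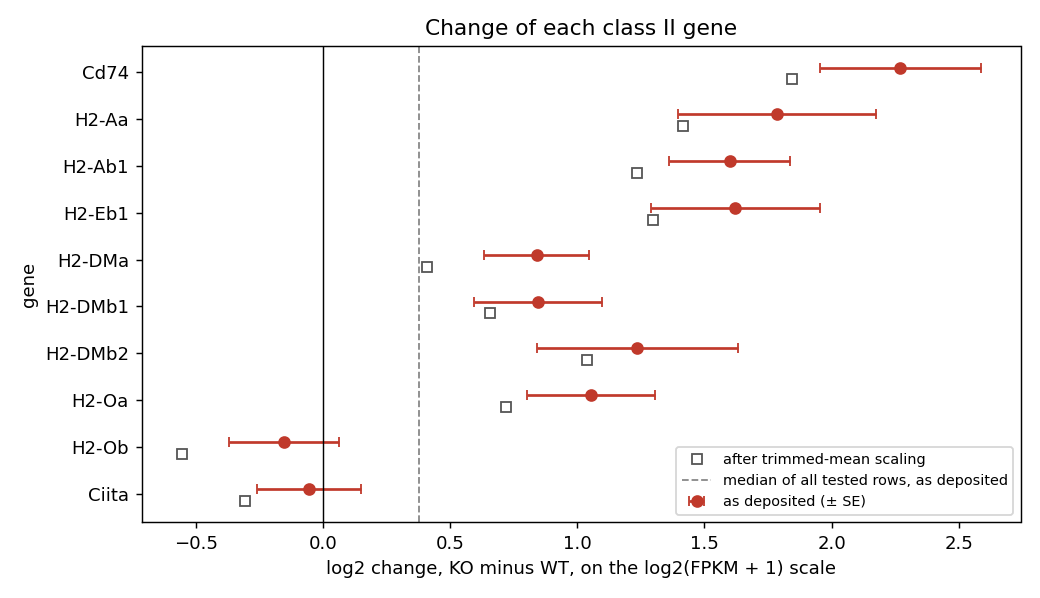
Log2 change of each class II gene, KO minus WT, on the log2(FPKM + 1) scale; filled points with bars are the deposited values with their SE, open squares the values after trimmed-mean scaling, and the dashed line the median of all tested rows at 0.38. Cd74 stands at 2.27, H2-DMa and H2-DMb1 at 0.84 and 0.85, and H2-Ob and Ciita, at -0.15 and -0.05, have error bars that span 0.

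The makeup of the class II set therefore differed between the libraries. Summed over the 10 genes, the level was 144 and 91.0 FPKM in KO 1 and KO 2, and 36.9 and 45.0 FPKM in WT 1 and WT 2. Cd74 made up 41.1% and 37.5% of this sum in KO 1 and KO 2, and 18.7% and 23.4% in WT 1 and WT 2. H2-Ob made up 4.48% and 10.4% in KO 1 and KO 2, and 23.6% and 19.8% in WT 1 and WT 2. H2-DMa made up 18.9% and 24.0% in KO 1 and KO 2, less than Cd74, and 33.4% and 31.4% in WT 1 and WT 2, more than any other class II row. In the order of mean levels, Cd74 and H2-DMa led in the libraries labelled KO, followed by H2-Aa, H2-Ab1, H2-Ob and H2-Eb1, whose ranges overlapped. In WT the order was H2-DMa, then H2-Ob and Cd74, which overlapped, and then a group of low rows from H2-Aa (2.63 FPKM) to H2-DMb1 (0.379 FPKM).

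Ratios among the classical chains and Cd74 overlapped between the groups but varied between libraries. H2-Aa was 1.85 and 1.59 times H2-Eb1 in KO 1 and KO 2, and 1.85 and 1.69 times in WT 1 and WT 2. The ratio of Cd74 to H2-Aa was 3.40 and 4.74 in KO 1 and KO 2, and 3.57 and 3.15 in WT 1 and WT 2. The ratio of H2-Aa to H2-Ab1 was 1.54 and 1.03 in KO 1 and KO 2, and 0.807 and 1.56 in WT 1 and WT 2, so which I-A chain was higher depended on the library. The ratio of Cd74 to H2-Ab1 was 5.24 and 4.88 in KO 1 and KO 2, and 2.88 and 4.91 in WT 1 and WT 2. All 4 ratios overlapped between the groups, while the ratio of Cd74 to H2-DMa did not, at 2.17 and 1.56 in KO 1 and KO 2 against 0.560 and 0.745 in WT 1 and WT 2. The libraries labelled KO differed among themselves as well. KO 1 exceeded KO 2 by 1.62 to 2.42 times for Cd74, H2-Aa, H2-Ab1 and H2-Eb1, and by 2.80 times for H2-DMb2, and by 1.25 times for H2-DMa and 1.23 times for Ciita, and H2-Ob was lower in KO 1 (0.682 times KO 2).

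Other genes of the pathway were called at a rate near the background. Of 22 further genes listed, 20 were matched and 18 tested, and 5 were called higher and 0 lower against the background of 25.6% and 1.0%; their median log2 change of 0.34 lay at -0.04 relative to that of all tested rows. Among the DNA-binding partners of Ciita, the RFX subunit Rfx5 had 4.67 and 4.25 FPKM in KO 1 and KO 2, against 1.31 and 1.72 FPKM in WT 1 and WT 2 (log2 change 1.12 ± 0.18 SE, limma adjusted p = 0.0141). Its fellow RFX subunit Rfxank had 11.5 and 12.5 FPKM in KO 1 and KO 2, against 16.4 and 14.0 FPKM in WT 1 and WT 2, and was not called (limma adjusted p = 0.237). Without WT 1, 0 of the pathway genes were called (limma), and after quantile normalization 1 was. The NF-Y subunits Nfyc (15.2 to 18.0 FPKM in the libraries labelled KO, 10.9 to 13.3 in WT) and Nfyb (10.4 to 10.6, against 8.05 to 8.41) were not called either.

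Irf1, an interferon-induced factor that acts on the Ciita gene, showed no called difference (limma adjusted p = 0.735). Irf1 was higher in the second library of each group, with 73.8 and 135 FPKM in KO 1 and KO 2 and 58.5 and 127 FPKM in WT 1 and WT 2. Prdm1 encodes Blimp-1, a repressor of Ciita in plasma cells. It had 4.67 and 3.21 FPKM in KO 1 and KO 2, against 0.688 and 0.877 FPKM in WT 1 and WT 2, and rose by 1.46 on the log2 scale (limma adjusted p = 0.0131). Prdm1 passed the filter on low values only through the libraries labelled KO, so this call, which is part of the pathway count above, is a description.

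Of the endosomal proteins that prepare peptides and cut Cd74, Ctsb and Ifi30 rose. The cathepsin Ctsb had 47.6 and 44.8 FPKM in KO 1 and KO 2, against 12.2 and 18.5 FPKM in WT 1 and WT 2 (log2 change 1.56, limma adjusted p = 0.0139). Ifi30, a thiol reductase that opens disulfide bonds of antigens, had 18.8 and 17.1 FPKM in KO 1 and KO 2, against 10.3 and 10.9 FPKM in WT 1 and WT 2 (log2 change 0.71, limma adjusted p = 0.0334). Ctss, the main protease of Cd74 in B cells and dendritic cells, was not called, at 98.4 and 76.9 FPKM in KO 1 and KO 2 and 65.4 and 95.0 FPKM in WT 1 and WT 2. Ctsd (78.6 to 83.2 FPKM in the libraries labelled KO, 73.2 to 73.6 in WT) and Sppl2a, the protease that clears the membrane stub of Cd74 (11.5 FPKM in both libraries labelled KO, 8.52 to 9.44 in WT), were not called. Cd83, which protects surface class II from turnover, had 10.7 and 8.46 FPKM in KO 1 and KO 2, against 1.63 and 3.65 FPKM in WT 1 and WT 2 (log2 change 1.59, limma adjusted p = 0.0164). Rfx5, Prdm1 and Cd83 are named after their values were seen, as the called genes beyond the 10 most abundant of the list.

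Markers of cells that make class II were measured in the same libraries. In bulk samples more cells of a type and more RNA per cell cannot be told apart. B cell genes were detected at low levels: the defining marker Cd79a had 2.93 and 4.90 FPKM in KO 1 and KO 2 and 3.19 and 3.13 FPKM in WT 1 and WT 2. The defining marker Ms4a1 had 1.25 and 0.701 FPKM in KO 1 and KO 2, and 0.327 and 0.584 FPKM in WT 1 and WT 2. Of 20 B cell genes listed, 18 were matched and 8 tested, 2 being called higher, a share near the 25.6% of all tested rows, and 1 lower. Cd79b, a signalling chain of the B cell receptor, had 3.76 and 3.03 FPKM in KO 1 and KO 2, against 0.842 and 0.861 FPKM in WT 1 and WT 2 (limma adjusted p = 0.0134), and Cd22 was called higher (0.0144) and Cd72 lower (0.0499). Cd79b passed the filter on low values only through the libraries labelled KO, so its call and the count that holds it are a description. The summed level of the 18 genes was 48.4 to 48.5 FPKM in the libraries labelled KO and 48.8 to 50.1 FPKM in WT, the most abundant being Fcer2a (12.4 FPKM in both libraries labelled KO, 14.8 to 19.2 FPKM in WT), and 3 of the genes were listed at 0 in WT 1, 2 in WT 2 and 0 in either library labelled KO. Gene by gene, 9 of the 18 were higher in both libraries labelled KO, 3 lower and 6 overlapped, and the median gene was at 1.26 and 0.889 FPKM in KO 1 and KO 2, and at 0.547 and 0.480 FPKM in WT 1 and WT 2.

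The sum of Cd79a, Cd79b and Ms4a1, a combination chosen after the data were seen, was 7.94 and 8.63 FPKM in KO 1 and KO 2, and 4.36 and 4.57 FPKM in WT 1 and WT 2. Cd74 was 7.45 and 3.95 times this sum in KO 1 and KO 2, and 1.58 and 2.30 times in WT 1 and WT 2. H2-Aa, H2-Ab1 and H2-Eb1 showed the same lack of overlap (H2-Aa 2.19 and 0.834 times in KO 1 and KO 2, against 0.444 and 0.728 times in WT 1 and WT 2). H2-DMb1, with few fragments in WT, did so too, at 0.248 and 0.123 times in KO 1 and KO 2, against 0.0593 and 0.109 times in WT 1 and WT 2. H2-DMa did not, at 3.43 and 2.53 times in KO 1 and KO 2 and 2.83 and 3.09 times in WT 1 and WT 2, and the ratios of H2-Oa and H2-DMb2 overlapped as well. H2-Ob ran the other way, at 0.814 and 1.10 times in KO 1 and KO 2, and 2.0 and 1.95 times in WT 1 and WT 2. So did Ciita, at 0.160 and 0.119 times in KO 1 and KO 2, and 0.331 and 0.226 times in WT 1 and WT 2. Relative to Cd79a alone, Cd74 was 20.2 and 6.96 times as high in KO 1 and KO 2, and 2.16 and 3.36 times in WT 1 and WT 2. These ratios rest on few fragments of the B cell genes, and the part of B cell RNA in the class II levels was not tested.

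Macrophage and monocyte markers had a higher sum in the libraries labelled KO. Of 15 listed, all were matched and 3 tested, and 2 of these were called higher, where 25.6% of all tested rows were. Lyz2, a lysozyme of myeloid cells, had 2.99 and 4.38 FPKM in KO 1 and KO 2 against 0.164 and 1.53 FPKM in WT 1 and WT 2 (limma adjusted p = 0.0339). The receptor kinase Axl had 6.46 and 3.05 FPKM against 0.274 and 0.835 FPKM (limma adjusted p = 0.0159). Axl passed the filter on low values only through the libraries labelled KO, and 12 of the 15 were not tested, so the count is a description. The defining markers Csf1r (0.0927 and 0.354 FPKM in KO 1 and KO 2, 0.0380 and 0.197 FPKM in WT 1 and WT 2) and Adgre1 (0.168 and 0.342, against 0.184 and 0.0890 FPKM) were near 0 in every library. Gene by gene, 6 of the 15 were higher in both libraries labelled KO, 0 lower and 9 overlapped, where 58.5% of all tested rows were higher in both. The list summed to 13.1 to 16.2 FPKM in the libraries labelled KO and 2.97 to 5.30 FPKM in WT, with 0 and 3 genes listed at 0 in KO 1 and KO 2, and 5 and 2 in WT 1 and WT 2. In the libraries labelled KO most of this sum came from Axl, Lyz2 and Cd68. Cd74 was 3.64 and 2.60 times this sum in KO 1 and KO 2, and 2.32 and 1.98 times in WT 1 and WT 2. For H2-Aa, H2-Ab1 and H2-Eb1 the ratios to it overlapped between the groups, as for H2-Aa with 1.07 and 0.548 in KO 1 and KO 2 and 0.651 and 0.628 in WT 1 and WT 2. The part of these cells in the class II levels was not tested.

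Dendritic cell markers had overlapping sums. Of 12 matched genes 4 were tested and 1 was called higher, a share near the 25.6% of all tested rows. This was Dnase1l3 (1.92 and 1.19 FPKM in KO 1 and KO 2, 0.291 and 0.258 FPKM in WT 1 and WT 2, limma adjusted p = 0.0248). It passed the filter on low values only through the libraries labelled KO. The list summed to 59.1 to 65.1 FPKM in the libraries labelled KO and 54.7 to 61.8 FPKM in WT, nearly all of it from Cst3 (31.2 to 37.6 FPKM in the libraries labelled KO, 18.8 to 33.4 in WT), Xcr1 (13.1 to 13.8 and 16.4 to 19.6) and Siglech (10.9 to 11.1 and 10.9 to 13.8). The defining markers were near 0: Itgax was at 0.245 to 0.297 FPKM in the libraries labelled KO and 0.0354 to 0.268 FPKM in WT, Flt3 at 0.0753 to 0.164 and 0.118 to 0.324 FPKM, and Zbtb46 at 0.258 to 0.573 and 0 to 0.206 FPKM. Clec10a was listed at 0 in every library. Erythroid genes moved with the labels as well, with a sum of 347 to 437 FPKM in the libraries labelled KO and 8.82 to 113 FPKM in WT, WT 1 being lowest. Of 6 tested, some of which passed the filter only through the libraries labelled KO, 6 were called higher, where 25.6% of all tested rows were. The defining erythroid markers Hba-a2 (140 and 111 FPKM in KO 1 and KO 2, 2.07 and 32.3 FPKM in WT 1 and WT 2) and Alas2 (1.24 and 2.41, against 0 and 0.677 FPKM) were among them. Of the helper T cell genes 3 of 11 (Cd4, Cd3e and Cd5) were called higher, a share near the 25.6% of all tested rows. Of the other 8, Cd3d was lower in both libraries labelled KO, Cd3g, Lat and Cd28 overlapped between the groups, and the ratio of Cd74 to Cd4 was 0.281 and 0.184 in KO 1 and KO 2 and 0.0800 and 0.12 in WT 1 and WT 2.

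**Figure D3:**
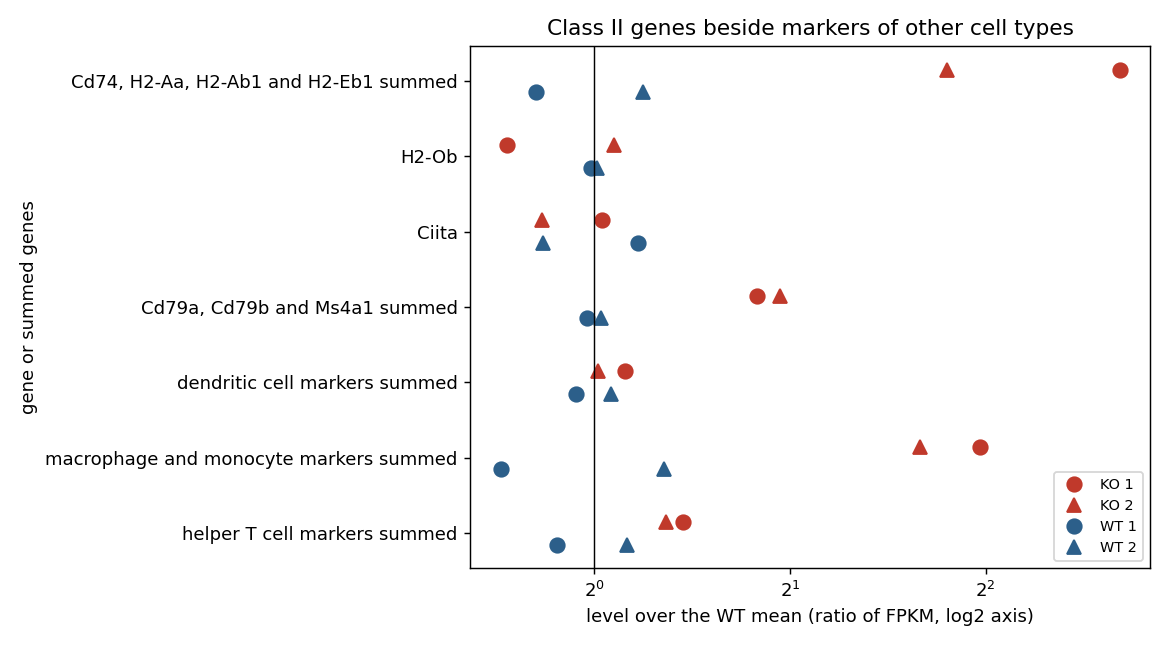
Level of class II genes and of marker lists in each library over the WT mean (ratio of FPKM, log2 axis); points are libraries and the line at 1 is the WT mean. The summed classical chains and Cd74 stand at 6.43 and 3.49 in KO 1 and KO 2. Within each of these libraries they lie above the summed macrophage and monocyte markers (3.92 and 3.17), but the ranges of both sums overlap. The 3 B cell markers (1.78 and 1.93) and the helper T cell markers (1.37 and 1.29) lie lower.

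Of the remaining lists, plasma cell genes summed to 23.7 to 24.1 FPKM in the libraries labelled KO and 11.0 to 13.2 FPKM in WT. Of 2 tested genes 1 (Txndc5) was called higher, where 25.6% of all tested rows were. The defining markers Jchain (6.65 and 9.49 FPKM in KO 1 and KO 2, 3.96 and 5.36 FPKM in WT 1 and WT 2) and Sdc1 (0.477 and 0.820, against 1.01 and 0.775 FPKM) were not called. No gene of the neutrophil (5 tested), NK cell (1 tested) and CD8 T cell (1 tested) lists was called. Their sums were 32.3 to 65.6, 2.65 to 3.64 and 11.1 to 11.6 FPKM in the libraries labelled KO, and 24.1 to 59.2, 5.20 to 5.29 and 10.7 to 11.3 FPKM in WT. Among their defining markers, S100a8 (7.18 and 23.6 FPKM in KO 1 and KO 2, 1.96 and 18.6 FPKM in WT 1 and WT 2) and S100a9 were higher in the second library of each group. Ncr1 and Klrb1c of NK cells stayed at 0.0825 to 0.633 FPKM in the libraries labelled KO and 0 to 1.08 FPKM in WT. Cd8a was at 0.251 to 0.764 FPKM in the libraries labelled KO and 0.249 to 0.434 FPKM in WT, and Cd8b1 at 10.3 to 11.3 and 10.5 to 10.9 FPKM.

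Of the class II genes, 8 lie together on mouse chromosome 17, and their neighbours were read beside them. In the RefSeq order (GRCm38.p6) the stretch from H2-Oa to H2-Eb1 holds 13 protein-coding genes, of which 5 are not class II genes; the stretch was chosen by position after the data were seen. Tap1, a subunit of the transporter that feeds peptides to class I, had 80.1 and 56.2 FPKM in KO 1 and KO 2, against 30.6 and 35.8 FPKM in WT 1 and WT 2, and was called higher (log2 change 0.997 ± 0.25 SE, limma adjusted p = 0.0304). The chromatin reader Brd2 (limma adjusted p = 0.12), the immunoproteasome subunits Psmb9 (0.330) and Psmb8 (0.497) and the second transporter subunit Tap2 (0.0674) were not called. Psmb8 had 160 and 141 FPKM in KO 1 and KO 2 and 112 and 146 FPKM in WT 1 and WT 2. H2-Ob lies between Tap2 and H2-Ab1, and it alone among the 13 had a negative log2 difference as deposited. Cd74, on chromosome 18, and Ciita, on chromosome 16, lie elsewhere.

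**Figure D4:**
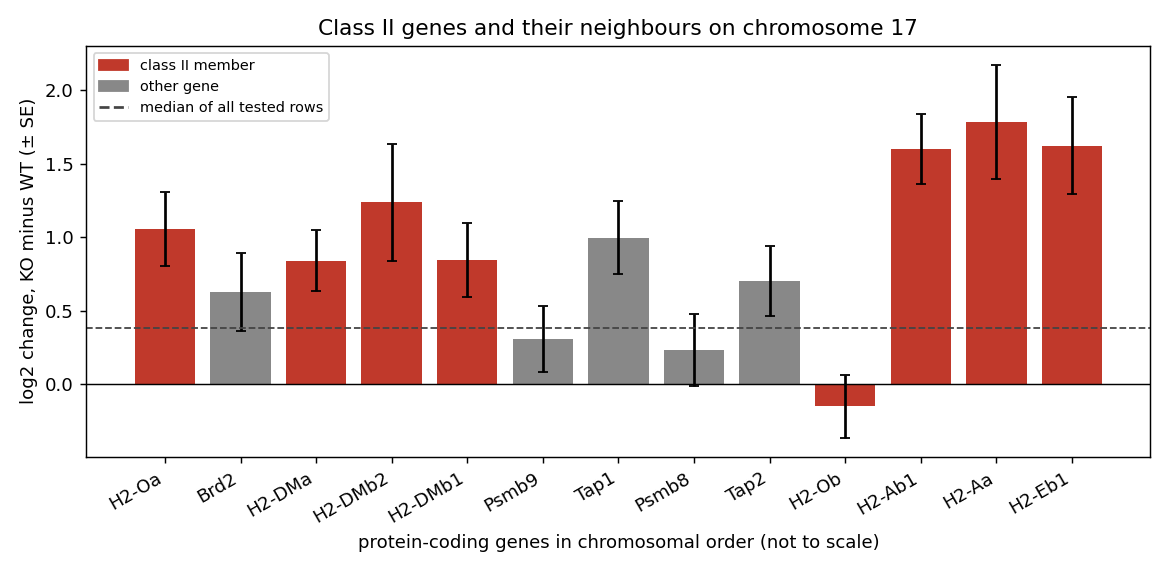
Log2 change, KO minus WT, of the 13 protein-coding genes from H2-Oa to H2-Eb1 in chromosomal order (not to scale); bars are limma estimates with SE, class II genes in red and others in grey, and the dashed line is the median of all tested rows. H2-Ab1, H2-Aa and H2-Eb1 at the right end stand at 1.60, 1.78 and 1.62, next to H2-Ob at -0.15.

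The rows most like the classical chains over the 4 libraries were sought as a description. The measure was the root mean square distance of the centred log2(FPKM + 1) values to the mean pattern of Cd74, H2-Aa, H2-Ab1 and H2-Eb1, over 6702 other rows with a mean of at least 5 FPKM. Lgals1, which encodes galectin-1, was nearest (distance 0.0491), with 270 and 142 FPKM in KO 1 and KO 2 and 51.4 and 65.8 FPKM in WT 1 and WT 2. Casp1, the inflammatory caspase, followed (0.0765), with 54.2 and 27.3 FPKM in KO 1 and KO 2 and 9.81 and 13.0 FPKM in WT 1 and WT 2. Both were nearer to the mean pattern than any of the class II genes it was made from (0.113 to 0.234). Lmnb1, Tnfrsf1b, Cldn25, Capg, Incenp, Ncapd2, Asb2 and Oas1a came next, at 0.105 to 0.138. With 4 libraries many rows that are high in KO 1 and low in WT 1 can have such a pattern. None of the 10 is a marker on the lists of class II-making cells. Most of those markers, among them Lyz2, Axl, Cd79b and Dnase1l3, had a mean under 5 FPKM and could not be found. Their absence is therefore no result. H2-Ob (1.10) and Ciita (0.995) were the class II genes farthest from it.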

How the data were processed

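RNA of 2 libraries labelled KO and 2 labelled WT was extracted with Direct-zol kits and made into libraries from 200 ng with a NEBNext Ultra kit, per the labels' protocols, and sequenced on an Illumina HiSeq. Per the submitters' processing notes, Bowtie 0.12.2 and the build mm8 were used; the sources used here do not name the program or annotation behind the levels. For every library the authors deposited FPKM values by gene symbol, per the file headers (23700 rows, 23234 symbols). FPKM carries no counts, so no count test was used, and a few abundant genes that change shift all others.

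The 11074 rows that reached 1 FPKM in 2 or more libraries were tested on log2(FPKM + 1) with limma (version 3.58.1, R 4.3.3), trend on, two-sided, with Benjamini-Hochberg adjustment over all tested rows and a threshold of 0.05. Folds are ratios of mean FPKM. The fit was tested on simulated data. Trimmed-mean scaling trimmed 30% of log ratios and 5% of levels at each side, with factors of 1.20 and 1.14 in KO 1 and KO 2 and 0.799 and 0.914 in WT 1 and WT 2. Depth was estimated from the steps of low values of genes that have a sole transcript, assuming fragments of 200 nt. Of those values 50.3% to 59.0% fell within 0.05 of a whole number of fragments, so fragment numbers are approximate and reads were not recovered.

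The class II genes and the lists were chosen with earlier results of these data known. The text names all 10 class II genes, the 10 most abundant pathway genes and the defining markers of each list, save a few genes that are not reported here; called genes of a list named beyond these were chosen after their values were seen. Of 120 list symbols, 111 matched directly and 5 through a synonym, such as H2-Ea-ps for H2-Ea, Emr1 for Adgre1, Igj for Jchain and 2010106G01Rik for Sppl2a. Sequences are from RefSeq and transcripts from GENCODE M21. Alternatives were each library left out, a replicate block, other pseudocounts, filters and scalings, no trend and robust moderation. Python 3.11.15, numpy 2.4.6, pandas 2.3.3 and matplotlib 3.10.9 were used.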

Additional observations from a re-analysis of the deposited data

How the results depend on the processing

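With each library left out in turn, 9 to 2189 rows were called higher and 0 to 123 lower, against 2832 and 111 with all 4 libraries, and 0 to 6 class II genes were called higher instead of 7. A group with 1 library left is assumed to vary like the other group. The count of 0 is without WT 1 by limma, where 3069 rows still rose at an unadjusted p under 0.05, and without WT 2 it was 2 (Cd74 and H2-Ab1). The class II median log2 change was 0.94 to 1.65 (1.14 with all), the pathway count 0 to 4 (5 with all) and the pathway median 0.32 to 0.61 (0.34 with all). The sign turned with libraries left out for H2-Ob, at -0.396 to 0.0929 (positive without KO 1), and for Ciita, at -0.186 to 0.0792 (positive without KO 2, at 0.0278, and without WT 1). The other 8 class II genes were positive in every setting that tested them. Trimmed-mean scaling gave 501 rows higher and 415 lower, with 2 class II genes and a pathway median of -0.0497. Quantile normalization gave 179 and 77, with 1 class II gene (Cd74), a class II median of 0.72, 1 pathway gene and a pathway median of -0.0597. No filter (20086 rows) gave 3 and 0 rows and 0 class II or pathway genes, with a smallest class II adjusted p of 0.0858 and 4604 rows higher at an unadjusted p under 0.05. A filter of 5 FPKM left 5 class II genes, 4 of them called, with a median of 1.60. Pseudocounts of 0.1 and 5 gave class II medians of 1.83 and 0.61 and pathway medians of 0.39 and 0.23. Robust moderation called 171 rows lower, and 6 class II genes higher, H2-Aa no longer among them. The labels give both groups replicates 1 and 2, but deviations of same-numbered libraries correlated at only 0.108 over rows, so the numbers are not taken as pairs; a replicate block called 3909 rows higher and 230 lower, and 8 class II genes. The log2 difference of the ratio of Cd74 to 3 B cell markers was 1.51, against 2.14 to Cd79a alone, 2.31 to dendritic and 0.52 to macrophage and monocyte markers; all but Cd79a alone were chosen after seeing the data. The cause of these shifts was not tested. Genes near 1 FPKM rest on few fragments.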
